A study of Mus musculus with 27 samples.

Results

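Foxp3 and the 5 genes of the Ikaros family, Ikzf1, Ikzf2, Ikzf3, Ikzf4 and Ikzf5, were described across 9 sorted groups of BALB/c mouse T cells. The members were chosen by name, and each probe set that the platform's gene table assigns to that symbol alone was kept. This gave 14 probe sets for 6 genes, of 34958 probe sets for 18194 genes in all. Foxp3 had a single probe set, Ikzf1 and Ikzf5 had a pair each, and Ikzf2, Ikzf3 and Ikzf4 had 3 each. Where 1 value is given for a gene, it comes from its brightest probe set on average, called the main probe set.

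The study measured messenger RNA on 27 Affymetrix 3' arrays, 3 per group. The regulatory T cell (Treg) groups were Foxp3+ GFP+ thymocytes with high, intermediate or low CD24 (CD24hi, CD24int, CD24lo) and Tregs from lymph node. CD24 is lost from the cell surface with thymocyte maturation, so its levels stand for maturity. Treg precursors from thymus were labelled Foxp3 GFP- and CD25+. The groups they were set against were Foxp3- GFP- thymocytes at the same CD24 levels, which the study's design calls conventional T cells although their sample labels carry the word Treg, and naive T cells from lymph node. The labels state strain and tissue but not age, sex, the build of the Foxp3 GFP reporter, the CD24 level of the precursors, or whether the replicates came from separate animals. P-values therefore measure the spread between these samples, which may be technical.

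Foxp3 is the forkhead transcription factor that defines Tregs, the T cells that restrain immune responses. The Ikaros family are zinc-finger transcription factors that bind DNA through fingers near one end and pair with one another through fingers near the other. Ikaros (Ikzf1), the founding member, is needed for lymphocyte development and recruits chromatin-remodelling and histone deacetylase complexes. Helios (Ikzf2) is abundant in thymus-derived Tregs, Aiolos (Ikzf3) is best known from B cell maturation, Eos (Ikzf4) acts in mouse Tregs as a partner of Foxp3 in gene repression, and Pegasus (Ikzf5) is a distant relative.

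Foxp3 lies on chromosome X, Ikzf1 and Ikzf3 on chromosome 11, Ikzf2 on chromosome 1, Ikzf4 on chromosome 10 and Ikzf5 on chromosome 7 of the mouse assembly GRCm38.p6. Promoter windows, from 250 bases before to 50 bases after an annotated start, were taken from RefSeq for 3 of the 6 genes, Foxp3, Ikzf1 and Ikzf5. Windows of Ikzf2, Ikzf3 and Ikzf4 were not used here. Both windows of Foxp3, the gene that the sort was made on, and the one window with a match of Ikzf1, the member that was lower in Tregs, are shown because a core of Ikaros family binding sites and a core of forkhead sites could be looked for in them. Capitals mark matches to the Ikaros family core GGGAA, which read TTCCC where the match is on the other strand.
Foxp3, first start, plus strand, chrX:7579426-7579725: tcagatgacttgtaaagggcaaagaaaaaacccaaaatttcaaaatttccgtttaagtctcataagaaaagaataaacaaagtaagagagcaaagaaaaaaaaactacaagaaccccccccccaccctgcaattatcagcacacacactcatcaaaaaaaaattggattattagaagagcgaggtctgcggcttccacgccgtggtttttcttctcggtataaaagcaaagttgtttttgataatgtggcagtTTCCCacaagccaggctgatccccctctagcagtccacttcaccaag
Foxp3, second start, plus strand, chrX:7580233-7580532: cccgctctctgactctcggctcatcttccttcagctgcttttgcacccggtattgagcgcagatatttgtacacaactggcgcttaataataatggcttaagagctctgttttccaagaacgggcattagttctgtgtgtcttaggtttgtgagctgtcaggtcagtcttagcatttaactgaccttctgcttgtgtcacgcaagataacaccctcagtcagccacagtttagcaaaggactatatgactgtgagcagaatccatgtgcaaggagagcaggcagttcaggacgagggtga
Ikzf1, second start, plus strand, chr11:11689927-11690226: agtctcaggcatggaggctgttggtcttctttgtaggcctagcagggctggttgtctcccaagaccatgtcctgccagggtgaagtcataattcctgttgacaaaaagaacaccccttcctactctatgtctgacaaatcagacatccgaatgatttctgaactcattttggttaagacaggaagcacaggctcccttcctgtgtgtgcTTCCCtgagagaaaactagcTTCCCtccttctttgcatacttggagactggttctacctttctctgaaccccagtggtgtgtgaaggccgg
The first Foxp3 window held 1 Ikaros family core, just after the annotated start, the second held 0, and the Ikzf1 window, chosen for its match, held 2. Of the windows not shown, that of the first Ikzf1 start held 0 and that of Ikzf5 held 1. Of 32851 mouse promoter windows of the same length, 62.7% hold this core on either strand. The forkhead core TGTTTAC was in 0 of the 3 windows shown and in 3.65% of all windows. These matches describe letters in the windows and not binding.

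The values are RMA intensities, a measure of probe brightness after background correction and normalisation between arrays, on a log2 scale. On that scale a difference of 1 is a doubling. Array medians lay between 30.3 and 32.0 intensity units, replicates of a group correlated at 0.987 to 0.997 across probe sets, and T cell markers were high in each group. The label check of the sort gave Il2ra, which encodes CD25, at 8.16 ± 0.29 in precursors and 4.42 ± 0.23 in Foxp3- CD24hi cells, and Cd24a at 10.34 ± 0.50, 9.08 ± 0.55 and 7.63 ± 0.40 in Foxp3+ CD24hi, CD24int and CD24lo cells (SD, n = 3). Replicate 3 of Foxp3- CD24hi stood apart in liver markers, which summed to 6237 intensity units against at most 142 in the other arrays, so results that rest on it are also given without it. A gene passed at a Benjamini-Hochberg adjusted p under 0.05 over 34958 probe sets, from a limma model of the 9 groups.

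Foxp3 measured 10.19, 10.07 and 9.96 in Foxp3+ CD24hi cells, against 3.94, 4.16 and 3.31 in Foxp3- CD24hi cells. In CD24int cells it was 9.94, 10.12 and 10.16 in Foxp3+ arrays, against 4.03, 3.54 and 3.89 in Foxp3- arrays. In CD24lo cells it was 9.83, 9.97 and 9.90 in Foxp3+ arrays, against 3.82, 3.98 and 3.68 in Foxp3- arrays. The groups were far apart, which repeats how the cells had been sorted and checks the labels rather than testing them. Lymph node Tregs measured 9.91, 10.03 and 9.74, against 4.37, 4.21 and 3.94 in naive cells. Precursors measured 4.14, 3.97 and 3.80, within or beside the range of the Foxp3- thymocytes. The Foxp3- means of 3.80 to 3.82 lay at percentiles 27.9 to 28.3 of all probe sets and the Foxp3+ means at percentiles 93.9 to 94.7.

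Among cells that carried Foxp3, its level did not differ beyond the spread. The difference was 0.00 ± 0.17 (SE) between Foxp3+ CD24int and CD24hi cells, -0.17 ± 0.17 between CD24lo and CD24hi cells, and -0.01 ± 0.17 between lymph node Tregs and Foxp3+ CD24lo cells. The 95% intervals were -0.34 to 0.35, -0.52 to 0.18 and -0.36 to 0.34, and changes smaller than these bounds could not be seen with 3 arrays per group. In bulk samples like these, fewer cells of a type and less RNA per cell cannot be told apart.

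**Figure D1:**
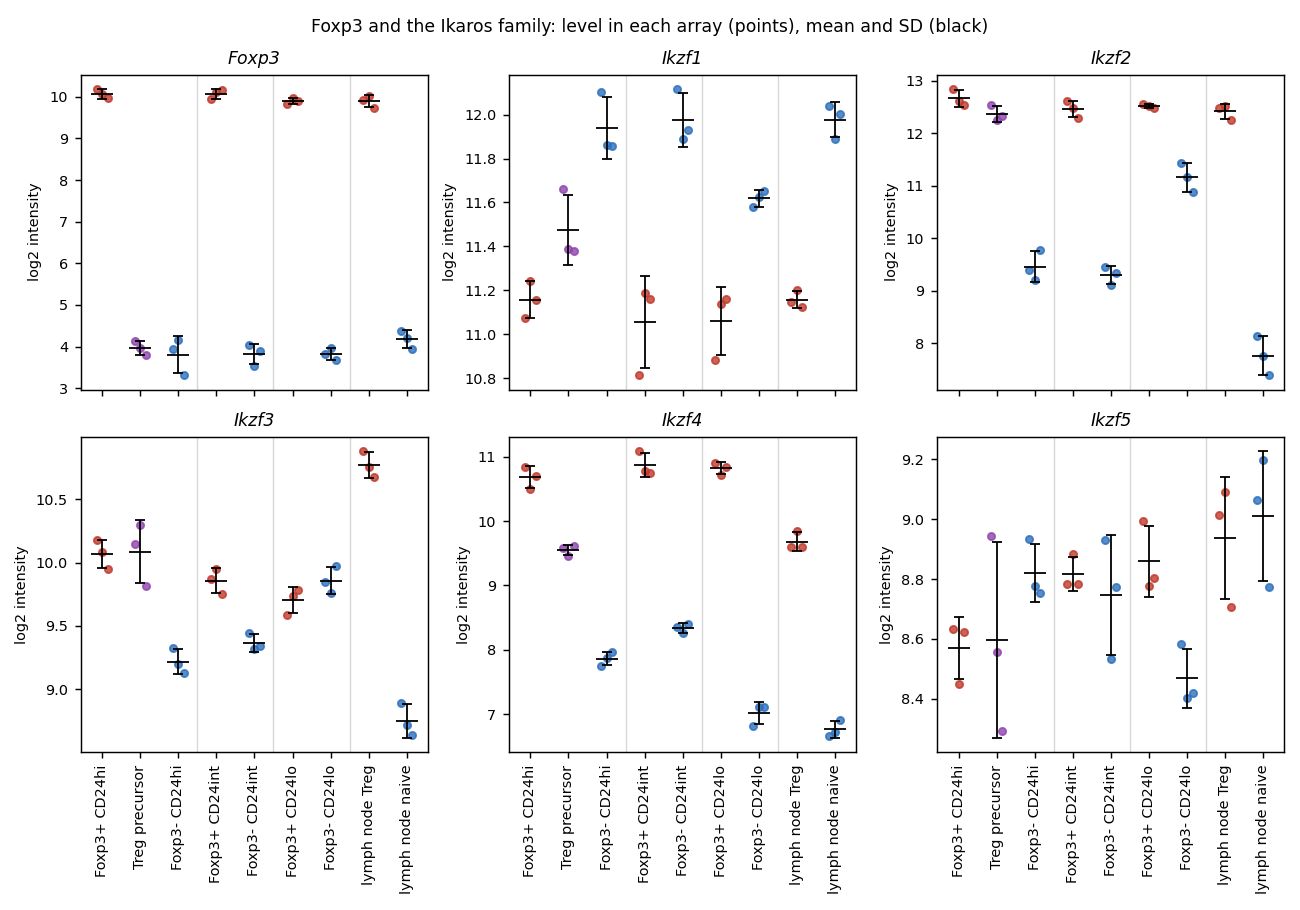
Log2 intensity of the main probe set of each gene (vertical axes, own scale per gene) in the 9 groups. Coloured points are arrays (red Treg, purple precursor, blue Foxp3- or naive) and black marks are mean and SD of 3 arrays. Foxp3 is near 10 in the 4 Treg groups alone, Ikzf2 is near 12.5 in Tregs and precursors, and Ikzf4 in precursors, at 9.55, lies between the Foxp3+ and Foxp3- thymocytes.

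In Tregs set against conventional cells, Helios and Eos were higher and Ikaros was lower at each of the 4 stages. Aiolos was higher at 3 of the 4 and Pegasus did not pass at any. Thus 4 of the 5 Ikaros genes passed between Foxp3+ and Foxp3- cells at CD24hi, where 15.0% of all probe sets passed. The counts were also 4 of 5 at CD24int, where 12.1% of all passed, 3 of 5 at CD24lo, where 17.3% passed, and 4 of 5 between lymph node Tregs and naive cells, where 9.50% passed.

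Ikzf2, which encodes Helios, measured 12.85, 12.62 and 12.53 in Foxp3+ CD24hi cells, against 9.39, 9.21 and 9.78 in Foxp3- CD24hi cells. At CD24lo it measured 12.55, 12.52 and 12.48 in Foxp3+ cells, against 11.44, 11.17 and 10.89 in Foxp3- cells. Arrays of the groups did not overlap, but the CD24lo gap was narrower because the Foxp3- arrays were higher there than at CD24hi. The Treg level was 9.25-fold higher at CD24hi (log2 difference 3.21 ± 0.17 (SE), limma adjusted p = 1.14e-12), 9.00-fold higher at CD24int and 2.56-fold higher at CD24lo (1.35 ± 0.17, adjusted p = 1.67e-06). In lymph node it measured 12.49, 12.51 and 12.25 in Tregs, against 8.14, 7.75 and 7.39 in naive cells, a 25.2-fold gap and the widest of the 4 stages (4.65 ± 0.17, limma adjusted p = 3.52e-15). Both other Ikzf2 probe sets passed in the same direction at each of these stages, with differences of 3.85 and 3.17 at CD24hi and 5.35 and 3.33 in lymph node.

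Ikzf4, which encodes Eos, measured 10.84, 10.50 and 10.71 in Foxp3+ CD24hi cells, against 7.75, 7.88 and 7.96 in Foxp3- CD24hi cells. At CD24int it measured 11.09, 10.77 and 10.75 in Foxp3+ cells, against 8.36, 8.25 and 8.40 in Foxp3- cells. At CD24lo it measured 10.90, 10.72 and 10.85 in Foxp3+ cells, against 6.81, 7.12 and 7.10 in Foxp3- cells. The Foxp3+ arrays lay between 10.50 and 11.09 at the 3 CD24 levels, while the Foxp3- arrays were lowest at CD24lo. The Treg level was 7.06-fold higher at CD24hi (2.82 ± 0.12, limma adjusted p = 2.58e-14), 5.78-fold higher at CD24int and 14.0-fold higher at CD24lo (3.81 ± 0.12, adjusted p = 9.90e-17). Lymph node Tregs measured 9.60, 9.85 and 9.59, against 6.67, 6.71 and 6.91 in naive cells, a 7.55-fold difference. The second probe set gave differences of 3.17, 2.67, 4.12 and 3.32 at the 4 stages, and the dimmest one gave 0.90, 0.96, 1.27 and, without passing, 0.41.

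Ikzf1, the gene of Ikaros, moved the other way and by less. It measured 11.07, 11.24 and 11.15 in Foxp3+ CD24hi cells, against 12.10, 11.86 and 11.85 in Foxp3- CD24hi cells. Tregs held 0.581 of the conventional level at CD24hi (-0.78 ± 0.12, limma adjusted p = 2.08e-05), 0.527 at CD24int (-0.92 ± 0.12), 0.679 at CD24lo (-0.56 ± 0.12, adjusted p = 0.000869) and 0.566 in lymph node (-0.82 ± 0.12). In lymph node the arrays read 11.14, 11.20 and 11.12 in Tregs, against 12.04, 11.89 and 12.00 in naive cells. The arrays of the compared groups did not overlap at any stage. Its other probe set fell too at the 4 stages, by 0.67, 0.78, 0.49 and 0.60.

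Ikzf3, which encodes Aiolos, differed at some stages and not at others. It measured 10.18, 10.08 and 9.95 in Foxp3+ CD24hi cells, against 9.32, 9.20 and 9.13 in Foxp3- CD24hi cells, a 1.81-fold difference (0.85 ± 0.12, limma adjusted p = 7.19e-06). The gap was 1.41-fold at CD24int (0.49 ± 0.12, adjusted p = 0.00468). At CD24lo it measured 9.59, 9.73 and 9.78 in Foxp3+ cells, against 9.84, 9.76 and 9.97 in Foxp3- cells, where the arrays overlapped and the difference of -0.16 ± 0.12 (95% interval -0.40 to 0.08) did not pass. In lymph node it measured 10.88, 10.76 and 10.68 in Tregs, against 8.89, 8.72 and 8.63 in naive cells, a 4.07-fold difference (2.02 ± 0.12, limma adjusted p = 4.19e-12). The second probe set passed at CD24hi (0.38) and in lymph node (1.26). The third was noisy, correlated with the main one at only 0.34 over the 27 arrays, and passed at 0 of the 4 stages in limma (at 1, CD24lo, its unadjusted p was under 0.05), with differences of 0.34 to 1.07. With the mean of the 3 probe sets the CD24int difference was 0.34 and did not pass (adjusted p = 0.258).

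Ikzf5 measured 8.63, 8.45 and 8.62 in Foxp3+ CD24hi cells, against 8.93, 8.78 and 8.75 in Foxp3- CD24hi cells. At CD24lo the order was turned, with 8.99, 8.78 and 8.80 in Foxp3+ cells, against 8.58, 8.40 and 8.42 in Foxp3- cells. Neither difference passed (-0.25 ± 0.15 and 0.39 ± 0.15, limma adjusted p = 0.299 and 0.0686). The arrays did not overlap in either, which is a description and not a test. The CD24lo difference passed without dim probe sets (limma adjusted p = 0.0443) and when replicate number entered as a block (0.0222). In lymph node the difference was -0.07 ± 0.15 (95% interval -0.37 to 0.23).

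**Figure D2:**
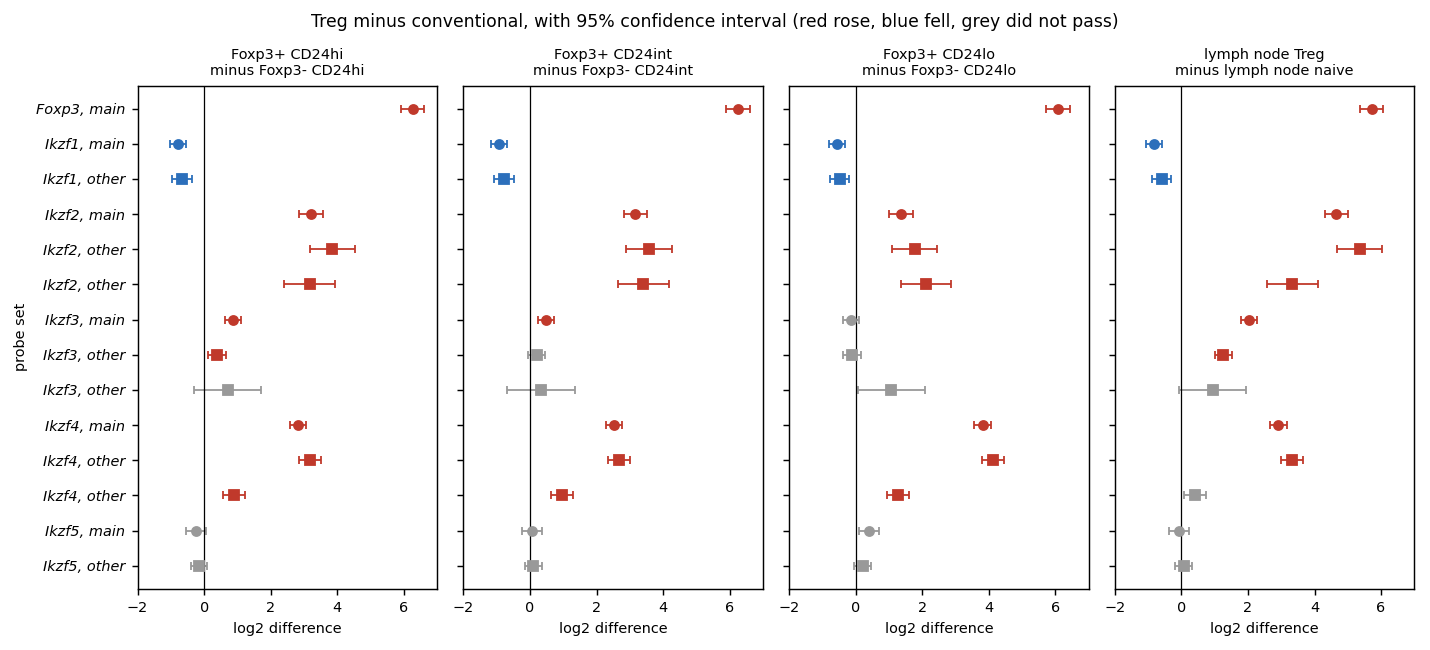
Log2 difference, Treg minus conventional, of the 14 probe sets (rows; circles main, squares other) at 4 stages (panels). Points are limma estimates with 95% intervals over 3 arrays per group, red where higher and passing, blue where lower and passing, grey where not passing. Ikzf2 and Ikzf4 lie right of 0 and Ikzf1 left of 0 in each panel, while the main Ikzf3 probe set ranges between -0.16 at CD24lo and 2.02 in lymph node.

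The CD24hi results held without replicate 3 of Foxp3- CD24hi. Without that array the differences were 3.37 for Ikzf2, 2.87 for Ikzf4, 0.81 for Ikzf3 and -0.83 for Ikzf1, and the same 4 Ikaros genes passed. Markers of natural killer and innate-like T cells summed to 1318 to 1732 intensity units in Foxp3+ CD24hi cells, against 210 to 281 in Foxp3- CD24hi cells. Il2rb, an interleukin-2 receptor chain that Tregs also carry, and Tbx21 rose, and the other 5 of the 7 did not pass. Of all probe sets 15.0% passed in that comparison. At CD24lo this list moved the other way. It summed to 1700 to 1970 intensity units in Foxp3+ CD24lo cells, against 8796 to 9909 in Foxp3- CD24lo cells. Zbtb16, the innate-like lineage factor, was at 4.91 ± 0.20 in Foxp3+ CD24lo cells and 10.90 ± 0.28 in Foxp3- CD24lo cells, and Klrd1, a natural killer receptor, was at 2.53 ± 0.16 and 9.74 ± 0.33 in the same groups (SD, n = 3). In the other thymic groups the 7 measured markers of that list summed to 210 to 1868. Their part in the CD24lo values of Helios, Aiolos and Eos was not tested.

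Precursors had the low Foxp3 level of Foxp3- CD24hi cells but differed from that group in Ikaros family levels. Between precursors and Foxp3- CD24hi thymocytes 4 of the 5 Ikaros genes passed, where 7.01% of all probe sets passed. Foxp3 differed by 0.17 ± 0.17 and did not pass (limma adjusted p = 0.755). Both groups were sorted as GFP-, so this Foxp3 value repeats the sort and tests nothing further. Helios, Aiolos and Eos were higher in precursors and Ikaros was lower. Between Foxp3+ CD24hi cells and precursors Eos was the 1 Ikaros gene that passed, where 12.7% of all probe sets passed, and Ikaros passed too in 3 of the alternative fits.

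Ikzf2 measured 12.54, 12.24 and 12.32 in precursors, against 9.39, 9.21 and 9.78 in Foxp3- CD24hi cells. The level was 7.52-fold higher (2.91 ± 0.17, limma adjusted p = 4.74e-11), and the precursor arrays overlapped those of Foxp3+ CD24hi cells. Foxp3+ CD24hi cells exceeded precursors by 0.30 ± 0.17 (95% interval -0.06 to 0.65), which did not pass. Ikzf3 measured 10.15, 10.30 and 9.81 in precursors, against 9.32, 9.20 and 9.13 in Foxp3- CD24hi cells, 1.83-fold higher (0.87 ± 0.12, limma adjusted p = 1.49e-05). It differed by -0.02 ± 0.12 between Foxp3+ CD24hi cells and precursors (95% interval -0.26 to 0.22).

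Ikzf4 stood between the groups. It measured 9.58, 9.46 and 9.62 in precursors, against 7.75, 7.88 and 7.96 in Foxp3- CD24hi cells, and was 3.22-fold higher (1.69 ± 0.12, limma adjusted p = 6.95e-10). Foxp3+ CD24hi cells, at 10.84, 10.50 and 10.71, exceeded precursors a further 2.19-fold (1.13 ± 0.12, limma adjusted p = 4.67e-07), and the 3 groups did not overlap. The second Ikzf4 probe set had the same steps, 1.99 and 1.18. Ikzf1 measured 11.66, 11.39 and 11.38 in precursors, against 12.10, 11.86 and 11.85 in Foxp3- CD24hi cells, 0.725 of that level (-0.46 ± 0.12, limma adjusted p = 0.0115). The remaining step of Ikzf1, Foxp3+ CD24hi minus precursor, was -0.32 ± 0.12 and did not pass (limma adjusted p = 0.0727). It passed at much the same size without dim probe sets (0.0405), with log2(intensity + 16) (0.0401) and with an intensity trend (0.0495). Its first step lost the call without 1 array, with an adjusted p of up to 0.0844 when replicate 1 of Foxp3- CD24hi was left out and 0.0626 and 0.0697 without precursor replicate 2 or 3.

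Placed on the distance between the Foxp3- CD24hi mean and the Foxp3+ CD24hi mean, precursors stood at 2.67% for Foxp3, 59.2% for Ikzf1, 59.9% for Ikzf4, 90.7% for Ikzf2 and 102% for Ikzf3. These positions are a description, since the steps share the precursor arrays. The other probe sets gave 62.6% for Ikzf1, 62.9% and 58.3% for Ikzf4, 87.0% and 99.9% for Ikzf2 and 140% and 56.5% for Ikzf3. Without replicate 3 of Foxp3- CD24hi the first steps were 3.07 for Ikzf2, 1.74 for Ikzf4, 0.82 for Ikzf3 and -0.51 for Ikzf1, and the same 4 genes passed. Markers of double-positive thymocytes, the stage before CD4 single-positive cells, summed to 1148 to 2884 intensity units in precursors, against 856 to 962 in Foxp3- CD24hi cells and 443 to 460 in Foxp3+ CD24hi cells. Of the 7 measured, 5 rose between precursors and Foxp3- CD24hi cells, where 7.01% of all probe sets passed. Rag1, a recombinase gene of that stage, was at 8.97 ± 0.78 in precursors and 6.77 ± 0.17 in Foxp3- CD24hi cells. Markers of natural killer and innate-like T cells summed to 866 to 1698 in precursors, against 210 to 281 in Foxp3- CD24hi cells, and 5 of the 7 rose, with a median difference of 2.12. Zbtb16 was at 6.97 ± 1.16 in precursors and 5.18 ± 0.48 in Foxp3- CD24hi cells, and Klrd1 at 5.64 ± 0.68 and 3.45 ± 0.48 in the same groups (SD, n = 3). Between Foxp3+ CD24hi cells and precursors, where 12.7% of all probe sets passed, 4 of these 7 fell, Zbtb16 and Klrd1 among them, and Il2rb rose. The part of either list in the precursor values was not tested.

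**Figure D3:**
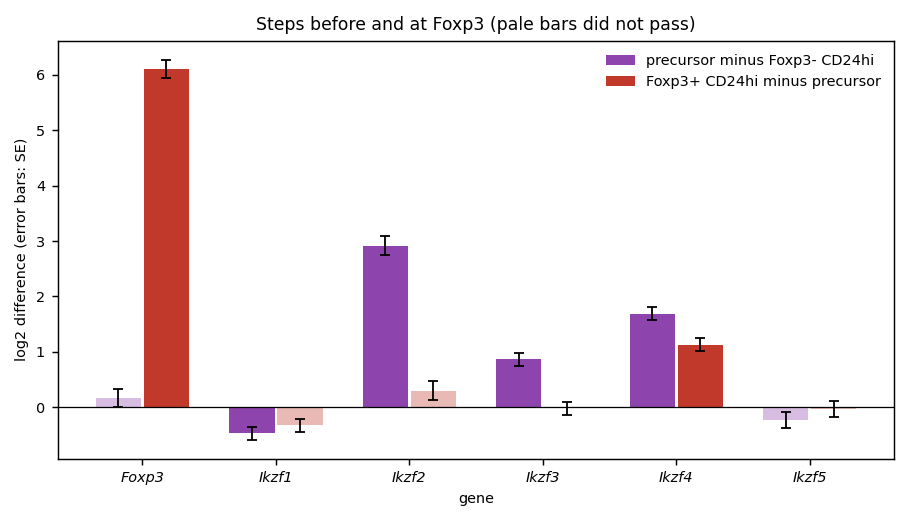
Log2 difference of the main probe sets at 2 steps, precursor minus Foxp3- CD24hi (purple) and Foxp3+ CD24hi minus precursor (red), with the SE as error bars and 3 arrays per group. Pale bars did not pass. Ikzf1, Ikzf2 and Ikzf3 passed at the first step alone and Ikzf4 at both, by 1.69 and 1.13. Foxp3, on which the cells were sorted, passed at the second alone.

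Along CD24 in Foxp3+ thymocytes, no member passed in limma. Between CD24int and CD24hi, 0 of the 6 genes passed in limma, and 0 at an unadjusted p under 0.05, where 0.137% of all probe sets passed. Between CD24lo and CD24int the counts were also 0 and 0, against 0.00572% of all probe sets. Between CD24lo and CD24hi, 0 of 6 passed and 1 had an unadjusted p under 0.05, where 1.91% of all passed. That one was Ikzf3, at 9.59, 9.73 and 9.78 in CD24lo cells, against 10.18, 10.08 and 9.95 in CD24hi cells. The arrays did not overlap, and the difference of -0.37 had a limma adjusted p of 0.129, or 0.0487 with the replicate number as a block. In their main probe sets Ikzf2 and Ikzf4 differed by -0.15 ± 0.17 and 0.14 ± 0.12 over the same span, with 95% intervals of -0.50 to 0.20 and -0.11 to 0.39. The second Ikzf2 probe set averaged 12.21 in CD24hi and 11.50 in CD24lo cells, and the third 7.72 and 7.88. For Ikzf4 the second probe set averaged 10.12 and 10.14 in the same groups, and the dimmest 5.48 and 5.97. Of the 14 probe sets, 0 passed in limma and 3 had an unadjusted p under 0.05. The share of all probe sets with an unadjusted p under 0.05 is not given, so these unadjusted counts cannot be weighed against it.

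Foxp3- thymocytes changed at the last CD24 step. Between CD24lo and CD24int, 3 of the 6 genes passed, where 9.48% of all probe sets passed, with Helios and Aiolos higher and Eos lower. Ikzf2 measured 11.44, 11.17 and 10.89 in CD24lo cells, against 9.45, 9.11 and 9.33 in CD24int cells, 3.65-fold higher (1.87 ± 0.17, limma adjusted p = 2.32e-08). Ikzf3 measured 9.84, 9.76 and 9.97 in CD24lo cells, against 9.45, 9.32 and 9.34 in CD24int cells, 1.41-fold higher (0.49 ± 0.12, limma adjusted p = 0.00572). Ikzf4 measured 6.81, 7.12 and 7.10 in CD24lo cells, against 8.36, 8.25 and 8.40 in CD24int cells, 0.398 of that level (-1.33 ± 0.12, limma adjusted p = 1.87e-08). In each of the 3 genes, named because they passed on these same arrays, the arrays of CD24lo lay wholly outside those of CD24int. This is a description and no further support, and how many of all probe sets did so was not counted.

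Both other Ikzf2 probe sets rose, by 1.57 and 1.41, and the second Ikzf4 probe set fell by 1.38. The dimmest Ikzf4 probe set averaged 4.58, 4.76 and 4.70 at CD24hi, CD24int and CD24lo and did not pass between CD24lo and CD24int. For Ikzf3 the other probe sets gave 0.28 and -1.06 without passing, so that the mean over its 3 probe sets was -0.10 (limma adjusted p = 0.860). Ikzf1 differed by -0.36 ± 0.12 and did not pass (adjusted p = 0.0514), but passed with the replicate number as a block (0.0370) and in 5 other alternative fits (0.0250 to 0.0398). Natural killer and innate-like markers summed to 8796 to 9909 in CD24lo cells, against 367 to 913 in CD24int cells. In 7 of 7 these markers were higher and passed, where 9.48% of all probe sets passed. Their part in these values was not tested.

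Over the whole span, CD24lo minus CD24hi, 3 of the 6 genes passed in Foxp3- cells, where 14.1% of all probe sets passed. The differences were 1.71 ± 0.17 for Ikzf2, 0.64 ± 0.12 for Ikzf3 and -0.85 ± 0.12 for Ikzf4, and 1.87, 0.60 and -0.80, still passing, without replicate 3 of CD24hi. With the mean of its 3 probe sets Ikzf3 was at 0.08 and did not pass (limma adjusted p = 0.859). Ikzf5 differed by -0.35 ± 0.15 and did not pass (limma adjusted p = 0.121), but did so with the replicate number as a block (0.0456). Ikzf1 differed by -0.32 and passed in 3 alternative fits alone (0.0363 to 0.0454). The first step, CD24int minus CD24hi, gave 1 of 6, where 3.62% of all passed. This was Ikzf4, at 8.36, 8.25 and 8.40 in CD24int cells, against 7.75, 7.88 and 7.96 in CD24hi cells (0.47 ± 0.12, limma adjusted p = 0.0230). That call was lost when any of 4 single arrays was left out, replicates 1 and 2 of CD24hi and 1 and 3 of CD24int, with an adjusted p of 0.0634 to 0.111. In Foxp3- cells Eos was thus highest at CD24int, while Helios was highest at CD24lo.

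The difference between Foxp3+ and Foxp3- cells in their change along CD24 was tested directly. For CD24lo minus CD24hi, Foxp3+ minus Foxp3-, 3 of the 6 genes passed, where 6.21% of all probe sets passed. The difference in change was -1.85 ± 0.24 for Ikzf2 (limma adjusted p = 9.82e-06), -1.01 ± 0.16 for Ikzf3 (0.000187) and 0.99 ± 0.17 for Ikzf4 (0.000336). Without replicate 3 of Foxp3- CD24hi the values were -2.01, -0.96 and 0.94, and the 3 genes still passed. With the mean of its 3 probe sets the Ikzf3 value was -0.38 (limma adjusted p = 0.504). Ikzf5 did not pass, at 0.64 ± 0.21, but passed in 4 alternative fits, with the replicate number as a block (0.0175), the compared groups alone (0.0288), no dim probe sets (0.0447) or 1 probe set per gene (0.0491). For CD24int minus CD24hi 0 of 6 passed in limma and 1, Ikzf3 at -0.36 ± 0.16, had an unadjusted p under 0.05, where 0.958% of all probe sets passed.

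**Figure D4:**
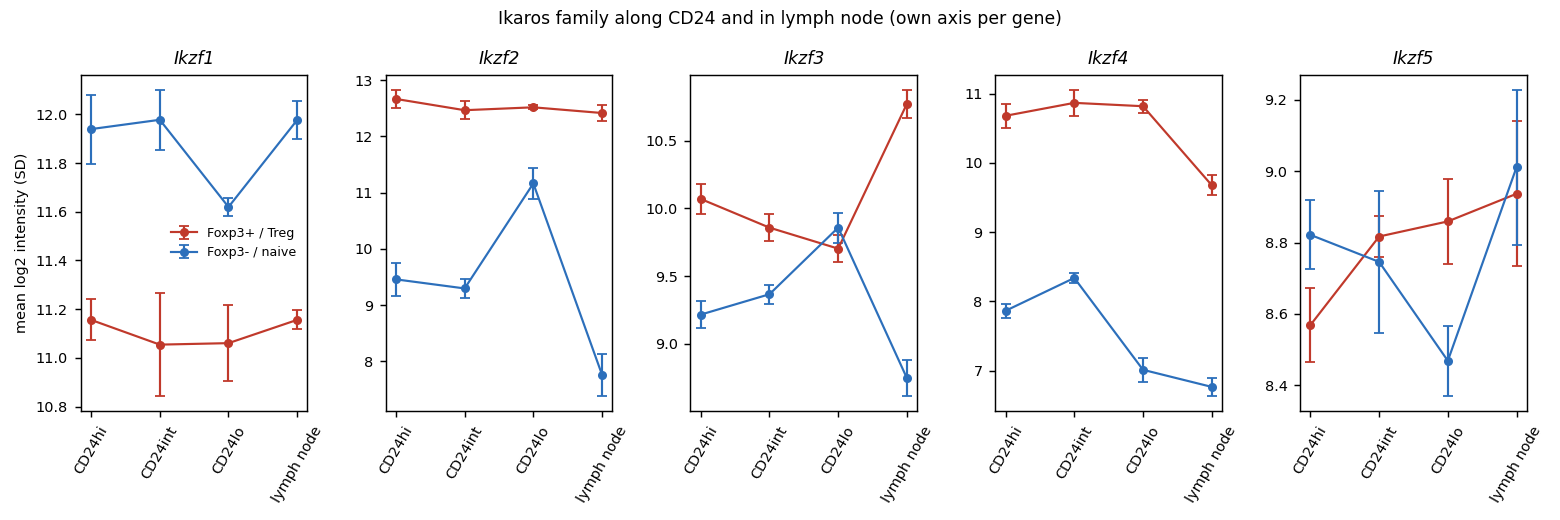
Mean log2 intensity with SD over 3 arrays (vertical axes, own scale per gene) of the 5 Ikaros genes at CD24hi, CD24int and CD24lo and in lymph node, for Foxp3+ or Treg cells (red) and Foxp3- or naive cells (blue). In Treg cells the main Ikzf2 probe set stays between 12.42 and 12.67, whereas in the other cells it is 11.16 at CD24lo and 7.76 in lymph node. The lines cross for Ikzf3 at CD24lo.

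Lymph node Tregs differed from Foxp3+ CD24lo thymocytes in 2 of the 6 genes, where 4.10% of all probe sets passed. Aiolos was higher, at 10.88, 10.76 and 10.68 in lymph node Tregs, against 9.59, 9.73 and 9.78 in Foxp3+ CD24lo cells, a 2.10-fold difference (1.07 ± 0.12, limma adjusted p = 1.59e-06). Eos was lower, at 9.60, 9.85 and 9.59 in lymph node Tregs, against 10.90, 10.72 and 10.85 in Foxp3+ CD24lo cells, 0.453 of that level (-1.14 ± 0.12, limma adjusted p = 1.02e-06). The groups did not overlap in either gene, which describes the same arrays and is not a further test. The second Ikzf3 probe set rose by 0.60 and the 3 Ikzf4 probe sets all passed downward, the others by 0.89 and 0.76. The third Ikzf3 probe set differed by -0.52 without passing, and the mean over the 3 Ikzf3 probe sets, 0.38, did not pass. In their main probe sets Helios differed by -0.10 ± 0.17 and Ikaros by 0.10 ± 0.12.

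B cell markers summed to 379 to 566 intensity units in lymph node Tregs, against 183 to 198 in Foxp3+ CD24lo cells. Of the 7 measured, 3 rose, where 4.10% of all probe sets passed. Among the defining markers, Cd79a was at 4.69 ± 0.26 in lymph node Tregs and 4.39 ± 0.32 in Foxp3+ CD24lo cells, and Ms4a1 was at 7.22 ± 0.66 and 4.29 ± 0.01 in the same groups. Markers of antigen-presenting cells summed to 809 to 1193 in lymph node Tregs, against 364 to 480 in Foxp3+ CD24lo cells. The part of either list in the Aiolos and Eos values was not tested.

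Naive lymph node cells differed from Foxp3- CD24lo thymocytes in 4 of the 6 genes, where 11.5% of all probe sets passed. Helios measured 8.14, 7.75 and 7.39 in naive cells, against 11.44, 11.17 and 10.89 in Foxp3- CD24lo cells, 0.0946 of that level (-3.40 ± 0.17, limma adjusted p = 1.12e-12). Aiolos measured 8.89, 8.72 and 8.63 in naive cells, against 9.84, 9.76 and 9.97 in Foxp3- CD24lo cells (-1.11 ± 0.12, limma adjusted p = 1.78e-07). Ikaros and Pegasus were higher in naive cells in their main probe sets, by 0.36 ± 0.12 and 0.54 ± 0.15 (limma adjusted p = 0.0450 and 0.0133). The other Ikzf1 probe set averaged 6.43 in naive and 6.32 in Foxp3- CD24lo cells. The other Ikzf5 probe set averaged 7.14 and 6.95, and neither passed. The call on Ikaros was lost without any 1 of the 6 arrays (adjusted p = 0.0579 to 0.147). The call on Pegasus was lost without naive replicate 1 or 2 or Foxp3- CD24lo replicate 2 or 3 (0.0522 to 0.0920). Natural killer and innate-like markers summed to 722 to 820 in naive cells, against 8796 to 9909 in Foxp3- CD24lo cells, and 6 of the 7 fell. Their part in these values was not tested.

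The change between thymus and lymph node differed between Treg and conventional cells in 3 of the 6 genes, where 8.30% of all probe sets passed. Lymph node minus CD24lo thymus, Treg minus conventional, was 3.30 ± 0.24 for Ikzf2 (limma adjusted p = 1.78e-09), 2.18 ± 0.16 for Ikzf3 (2.70e-09) and -0.89 ± 0.17 for Ikzf4 (0.000818). With the mean of its 3 probe sets the Ikzf3 value was 1.14 and still passed (limma adjusted p = 0.00374). In the main Ikzf2 probe set the Treg arrays barely differed between the sites while the conventional ones did. The other Ikzf2 probe sets averaged 11.50 and 7.88 in Foxp3+ CD24lo cells and 11.10 and 7.28 in lymph node Tregs, without passing. Their means were 9.72 and 5.77 in Foxp3- CD24lo cells and 5.75 and 3.95 in naive cells. In the main and second Ikzf3 probe sets the classes moved in opposite directions. The third was lower in lymph node in both classes, going from 5.83 to 5.31 in Tregs and from 4.76 to 4.38 in conventional cells.

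The order of the groups can be read gene by gene. For Ikzf2 the order was Foxp3+ CD24hi, Foxp3+ CD24lo, Foxp3+ CD24int, lymph node Treg and precursor (12.67 to 12.37), whose neighbours overlapped, then Foxp3- CD24lo (11.16), Foxp3- CD24hi and CD24int (9.46 and 9.30, overlapping) and naive cells (7.76). For Ikzf4 it was the 3 Foxp3+ thymocyte groups (10.87 to 10.68, overlapping), lymph node Treg and precursor (9.68 and 9.55, overlapping), Foxp3- CD24int (8.34), Foxp3- CD24hi (7.86), and Foxp3- CD24lo and naive cells (7.01 and 6.76, overlapping). Ikzf3 was highest in lymph node Tregs (10.77) and lowest in naive cells (8.75), and the 5 groups between 10.08 and 9.70 overlapped with their neighbours. For Ikzf1 the 3 highest were Foxp3- CD24int, naive and Foxp3- CD24hi cells (11.98 to 11.94) and the 4 lowest were the Treg groups (11.16 to 11.05). Ikzf5 spanned only 0.54 between its highest and lowest group mean, with neighbours overlapping throughout.

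Over the 27 arrays, which share the group structure and so are no independent test, Foxp3 correlated at 0.84 with Ikzf4, 0.71 with Ikzf2, 0.56 with Ikzf3, 0.17 with Ikzf5 and -0.86 with Ikzf1. Ikzf2 correlated at 0.84 with Ikzf3 and 0.83 with Ikzf4, and at -0.89 with Ikzf1. Among 3143 genes whose group means spanned at least 1 log2 unit, the highest correlation with Foxp3 was that of Phlpp1, a phosphatase of the Akt pathway, at 0.98, followed by Pgpep1l, Cdk19, Mtmr3 and Ecm1. The lowest were Rcc1l at -0.96, Gpatch4 and Cox10. For Ikzf2 the highest were Swap70 (0.97), Evi5, Tnfrsf1b, Zfp52 and Rora and the lowest were P2ry10b (-0.96), Cnga1 and Emb.

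Ikzf4 was most like Tnfrsf18 (0.97), which encodes the Treg surface receptor GITR, then Dst, Tnfrsf4, which encodes OX40, Map3k8 and Dusp4. Its lowest were Acvr1b (-0.97), an activin receptor, Mctp2 and Prag1. Ikzf3 had weaker likenesses, with Anxa2 at 0.88, then Npas4, Osbpl3, Tnfrsf1b and Ikzf2 itself (0.84), and Tdrp (-0.88), Als2cl and Map3k14 lowest. Ikzf1 and Ikzf5 spanned less than 1 log2 unit and were not ranked this way.

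Genes that work with Foxp3 and the Ikaros family were read from lists written from general knowledge. Of 18 factors that act on the Foxp3 gene, 7 rose and 4 fell between Foxp3+ and Foxp3- cells at CD24hi, 7 and 4 at CD24int, 9 and 4 at CD24lo, and 10 and 2 in lymph node. Of all probe sets 15.0%, 12.1%, 17.3% and 9.50% passed at these 4 stages. The list's median difference was 0.04, 0.12, 0.50 and 0.34 at these stages, beside -0.01, -0.02, -0.01 and -0.04 over all probe sets. Stat5a, which carries the interleukin-2 signal to the Foxp3 gene, was 1.65 ± 0.12 higher at CD24hi (limma adjusted p = 2.91e-10). Nr4a3, a nuclear receptor induced by T cell receptor signals, was 2.34 ± 0.13 higher at CD24lo. Satb1, a chromatin organiser needed to open the Foxp3 locus in precursors, was lower, with differences of -0.93 ± 0.12 at CD24hi and -0.60 ± 0.12 at CD24int, and also passed in lymph node. Ets1, a factor that did not pass, differed by -0.02 at CD24hi and -0.04 in lymph node.

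In precursors set against Foxp3- CD24hi cells, both sorted as GFP-, 5 of the 18 factors rose and 3 fell, where 7.01% of all probe sets passed. Nr4a3 was highest in change at 1.41 ± 0.13 (limma adjusted p = 6.61e-08), and Runx1, which binds the Foxp3 promoter and enhancers, was lowest at -0.74 ± 0.13 (0.000279). Between Foxp3+ CD24hi cells and precursors 5 rose and 2 fell, where 12.7% of all passed, led by Foxo1, a forkhead factor that switches on Foxp3, at 1.01 ± 0.11 (5.82e-07), with Smad3, the transforming growth factor beta mediator, lowest at -0.55 ± 0.10.

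Of 17 measured protein partners of Foxp3, 5 rose and 3 fell at CD24hi, 6 and 3 at CD24int, 6 and 1 at CD24lo, and 8 and 2 in lymph node, where 15.0%, 12.1%, 17.3% and 9.50% of all probe sets passed. Hdac9, a histone deacetylase that restrains Treg function in mice, was 2.33 ± 0.19 higher in Foxp3+ cells at CD24hi, 2.88 ± 0.19 at CD24int and 3.68 ± 0.19 at CD24lo (limma adjusted p = 5.69e-13). Irf4, a partner that directs effector Treg genes, was the largest rise in lymph node at 2.31 ± 0.16. Lef1, a factor of Wnt signalling, was lower, with differences of -1.32 ± 0.13 at CD24hi and -1.19 ± 0.13 in lymph node. Trim28, a partner that did not pass, differed by 0.01 ± 0.12 at CD24hi.

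Ikaros proteins recruit corepressor complexes. Of 13 subunits of NuRD, the nucleosome remodelling and deacetylase complex, 2 rose and 1 fell at CD24hi, 2 and 0 at CD24int, 3 and 1 at CD24lo, and 1 and 0 in lymph node. Of all probe sets 15.0%, 12.1%, 17.3% and 9.50% passed at these stages. The subunit that was higher in Tregs at the 4 stages was the deacetylase Hdac1, by 0.88 ± 0.12, 0.78 ± 0.12, 0.87 ± 0.12 and 0.42 ± 0.12 (limma adjusted p = 6.85e-06 at CD24hi and 0.0221 in lymph node). Rbbp4, a histone-binding subunit that did not pass, differed by -0.16 ± 0.15 at CD24hi. Of 4 Sin3 and CtBP corepressors, of which CtBP binds Eos, Ctbp1 alone passed at CD24hi, at -0.33 ± 0.09, and 0 passed in limma at the other 3 stages, where 0 also had an unadjusted p under 0.05. Of 5 parts of the cereblon ubiquitin ligase, through which drugs destroy Ikaros and Aiolos in human cells, 0 passed in limma in the 3 thymic comparisons (1, 0 and 1 had an unadjusted p under 0.05 at CD24hi, CD24int and CD24lo) and Cul4b, a scaffold, rose in lymph node by 0.41 ± 0.11. The 3 relatives of Foxp3, Foxp1, Foxp2 and Foxp4, had 0 members passing in limma at CD24hi, CD24int and in lymph node, where 0, 1 and 2 had an unadjusted p under 0.05. At CD24lo Foxp1 and Foxp4 rose, Foxp1 by 0.58 ± 0.13.

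**Figure D5:**
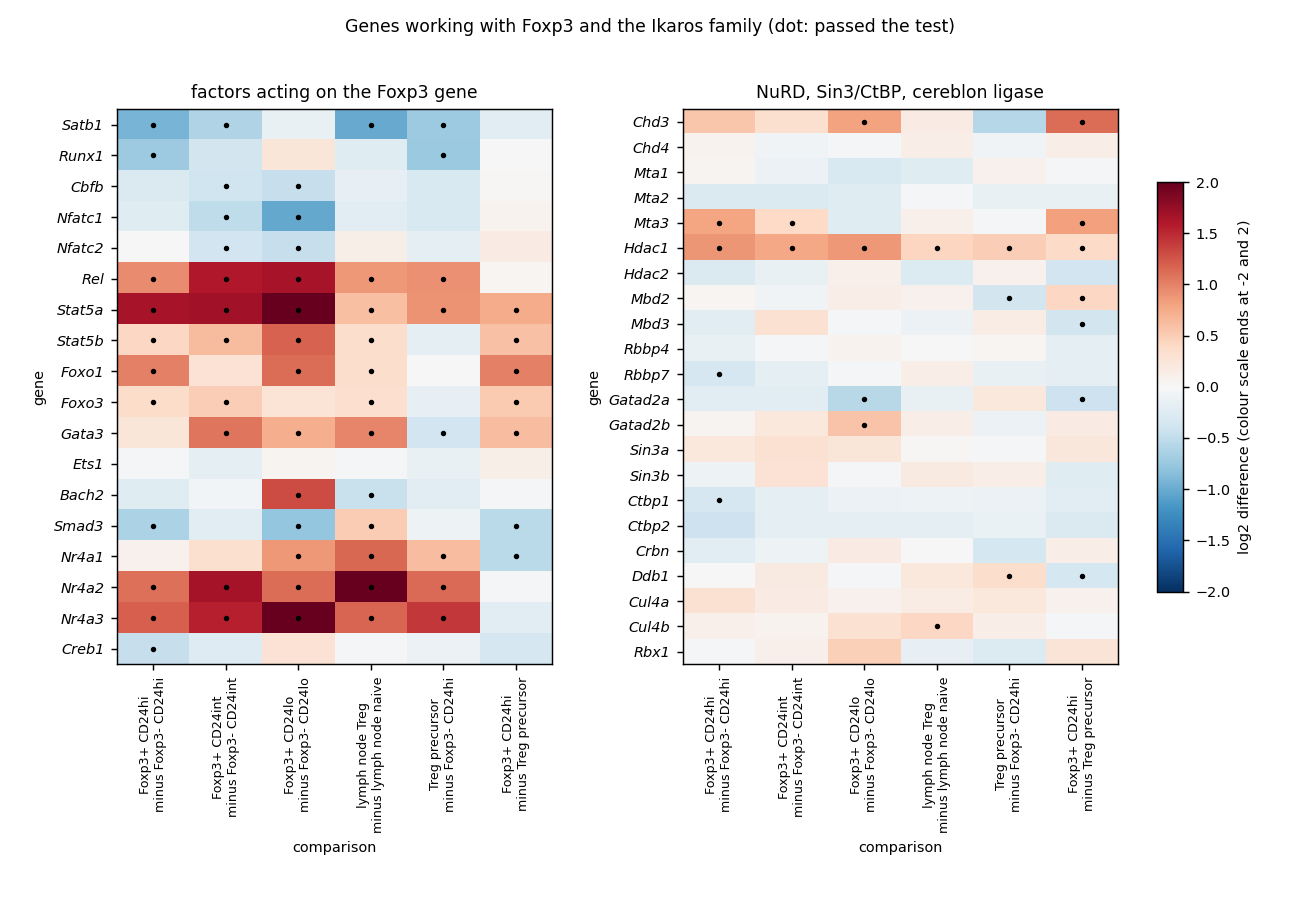
Log2 difference (colour, red higher and blue lower in the first-named group, scale ending at -2 and 2) of 18 factors acting on the Foxp3 gene (left) and 22 corepressor and ligase genes (right) in 6 comparisons (columns). Dots mark genes that passed the limma test with 3 arrays per group. Nr4a2, Nr4a3, Rel and Stat5a are red in the first 5 columns, and Hdac1 is the one gene on the right with a dot in each column.

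The surface genes usually carried by Tregs were read beside Foxp3 and Ikaros genes as a check of cell identity. Of 6 measured, 5 rose at CD24hi, 6 at CD24int, 5 at CD24lo and 6 in lymph node, and 0 fell, where 15.0%, 12.1%, 17.3% and 9.50% of all probe sets passed. In precursors 5 rose and 1 fell against Foxp3- CD24hi cells, where 7.01% of all probe sets passed. Il2ra, used in the precursor sort, was 3.74 ± 0.20 higher. In the CD24lo comparison Itgae, an integrin chain, did not pass (-0.13), and it was 5.97 higher in Foxp3- CD24lo than in Foxp3- CD24hi cells. The 6 genes summed to 5174 to 5960 intensity units in precursors and 4901 to 5354 in Foxp3- CD24lo cells, which overlapped. The sums were 2140 to 2511 in Foxp3- CD24hi cells and 10561 to 13707 in Foxp3+ CD24hi cells. The part of innate-like cells in the Foxp3- CD24lo values was not tested.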

How the data were processed

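Messenger RNA was measured in 27 samples, and 50 ng of total RNA each was labelled with biotin for Affymetrix 3' arrays, per the labels' protocols. The authors deposited RMA intensities, per the submitters' processing notes. Its version and settings are not given in the sources used here. The values were linear, from 3.55 to 24083, and were transformed to log2 with no constant added. Of 45101 probe sets, 34958 had a single symbol in the platform's gene table, 932 had several and 9211 had none, and only the first were used. Names of all 6 members matched RefSeq (GRCm38.p6).

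Groups came from the labels and the design text. A linear model of 9 group means on 27 arrays was fitted with limma 3.58.1 in R 4.3.3 (residual degrees of freedom 18, prior 5.46), with empirical Bayes moderation. Two-sided p-values were corrected with the Benjamini-Hochberg method across 34958 probe sets, separately in 17 comparisons. A probe set passed at an adjusted p under 0.05. The script was tested on simulated data. Precision is limited by the number of arrays, and detection calls were not used here.

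The members, the gene lists and the tests were chosen with earlier results of these data known. From each list the largest passing rise and fall, the smallest p and the failing gene with the highest level were eligible for naming, together with members, Il2ra and Cd24a. Other named genes, such as Foxp4, Itgae, Zbtb16, Klrd1, Rag1, Cd79a and Ms4a1, were chosen after their values were seen. Likeness is Pearson's r over 27 arrays among 3143 genes, with no test. Whether arrays of compared groups overlapped is a description, and the share of all probe sets that did not overlap was not counted. Percentages of all probe sets refer to adjusted p-values, and no such share is given for unadjusted ones.

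Replicate numbers are the leading digit of a code in the labels, whose meaning is not stated. Deviations from the group means were correlated between same-numbered arrays across probe sets, and a comparison counted as paired if its lowest r exceeded 0.1. This held for 11 of 17 comparisons. The exceptions were Foxp3+ against Foxp3- cells at CD24int (-0.016) and CD24lo (0.086), lymph node Tregs against Foxp3+ CD24lo cells (0.054) and the 3 differences of changes. Alternatives were a replicate block, quantile normalization, a filter on dim probe sets, 1 probe set or the mean of all probe sets per gene, a constant of 16, an intensity trend, the compared groups alone and leaving out each array.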

Additional observations from a re-analysis of the deposited data

Results flagged for a closer look

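Values here are differences of 2 changes on the log2 scale, marked for a closer look because the change passed a limma test of the difference between Treg and conventional cells.

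The first set is the change between CD24hi and CD24lo thymocytes, Foxp3+ minus Foxp3-. Helios (Ikzf2) gave -1.85 in the main probe set and -2.08 in the second. Aiolos (Ikzf3) gave -1.01 in its main probe set, and its other probe sets did not pass. In the third, Foxp3+ means went from 6.15 at CD24hi to 5.83 at CD24lo and Foxp3- means from 5.45 to 4.76. Its difference thus had the other sign. Eos (Ikzf4) gave 0.99 and 0.94 in its 2 brighter probe sets, and its dimmest did not pass. The separate changes in the main probe sets, CD24lo minus CD24hi, were -0.15 in Foxp3+ cells and 1.71 in Foxp3- cells for Helios. They were -0.37 and 0.64 for Aiolos, and 0.14 and -0.85 for Eos.

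The second set is the change between CD24lo thymocytes and lymph node, Treg minus conventional. Helios gave 3.30 and 3.58 in its 2 brighter probe sets. Aiolos gave 2.18 and 1.37 in its 2 brighter probe sets, with 1.07 between lymph node Tregs and Foxp3+ CD24lo cells and -1.11 between naive and Foxp3- CD24lo cells. Eos gave -0.89, -0.80 and -0.86 in its 3 probe sets. Both sets use the Foxp3- CD24lo arrays, whose natural killer and innate-like T cell markers summed to 8796 to 9909 intensity units, against 722 to 820 in naive cells, and the part of those markers was not tested.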

How the results depend on the processing

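Single-gene results were recomputed under the alternatives 1536 times, of which 1490 stayed on the same side of the threshold, 25 lost the call, 20 gained one and 1 reversed. The reversal was Aiolos (Ikzf3) between Foxp3- CD24lo and CD24int cells, at -0.098 with the mean of all probe sets (adjusted p = 0.860), and that mean holds a dim probe set that disagreed with the main one. The number of the 6 genes passing moved by over 1.5 times in 4 comparisons. Between Foxp3+ CD24lo and CD24hi cells it was 1 with the replicate block and 0 without. Between lymph node Tregs and Foxp3+ CD24lo cells it was 1 with the mean of all probe sets and 2 in the reported fit. Between Foxp3- CD24int and CD24hi cells it was 0 with the compared groups alone and 0 to 1 on leaving out single arrays. Between naive and Foxp3- CD24lo cells it was 2 or 3 on leaving out single arrays and 4 in the reported fit. Smaller moves, by 1 gene, were these. Ikzf1 gained a call between Foxp3- CD24lo and CD24int cells under 6 alternatives (adjusted p = 0.0250 to 0.0398), and under 3, no dim probe sets, log2(intensity + 16) and intensity trend, between Foxp3- CD24lo and CD24hi cells (0.0363 to 0.0454) and between Foxp3+ CD24hi cells and precursors (0.0401 to 0.0495). Ikzf5 gained one without dim probe sets between Foxp3+ and Foxp3- CD24lo cells (0.0443) and under 4 alternatives for the difference in change between CD24lo and CD24hi (0.0175 to 0.0491). With the mean of all probe sets Ikzf3 lost its calls between Foxp3+ and Foxp3- CD24int cells, between Foxp3- CD24lo and CD24hi cells and for that difference in change, and Ikzf1 lost its call between naive and Foxp3- CD24lo cells (0.147). With the compared groups alone Ikzf1 also lost its calls in precursors against Foxp3- CD24hi cells (adjusted p = 0.113) and in naive against Foxp3- CD24lo cells (0.0757); the cause was not tested. The replicate block moved the count of all passing probe sets by over 1.5 times in 11 of 17 comparisons, for example 1586 with it and 666 without between Foxp3+ CD24lo and CD24hi cells, 2501 and 1265 between Foxp3- CD24int and CD24hi cells, and 3906 and 2450 between precursors and Foxp3- CD24hi cells. Where numbers did not pair the samples, the block gave Ikzf5 an adjusted p of 0.0222 between Foxp3+ and Foxp3- CD24lo cells and 0.0175 for the difference in change along CD24. It changed no call of the members beyond these and those given above. The median SE of a difference between groups of 3 arrays was 0.15.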
